A study of Selaginella moellendorffii with 8 samples.

Results

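The rhizophore and the shoot tip of Selaginella moellendorffii were compared in 4 of the 8 RNA-seq libraries of the study, the 2 rhizophore libraries and the 2 shoot libraries, taken by the column names of the deposited count table. Selaginella is a lycophyte, a vascular plant lineage that split early from the one leading to ferns and seed plants. Its stems fork, and at each fork an angle meristem can grow out into a rhizophore, a leafless axis that grows down to the soil and forms roots at its tip. Angle meristems can also grow out as leafy shoots, which is why the identity of the rhizophore, between root and shoot, is a classic question in plant morphology. The shoot tip is the green, leaf-forming end of the plant, and its leaves are microphylls with a single vein.

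Rhizophores were ventral outgrowths of the angle meristem, aged 4 to 7 days and 2.5 to 3.5 cm long, without cap, hairs, green colour or any sign of leaves. Shoot tips were the outermost part of green young shoots that already carried microphylls, 10 to 20 days after branching. All plants were untreated and grown from stem cuttings at 80% humidity with 16 h of light and 8 h of dark, and 40 excised pieces were pooled for each library. Root libraries (2, from outgrowths aged 10 to 20 days with cap and hairs) and leaf libraries (2, from microphylls aged 10 to 14 days) were used where named. Age differed between rhizophore and shoot, so the effect of age and that of organ cannot be told apart. In such bulk tissue, fewer cells of a type and less RNA per cell cannot be told apart either.

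The rhizophore libraries held 10063538 and 11886486 counts, and the shoot libraries 15161907 and 15305641. The table lists no count from 1 to 4, so that "listed at 0" covers anything below 5 reads, and 5 counts correspond to 0.402 and 0.324 CPM (reads scaled to a common library size, with a correction for library composition by the TMM method) in the rhizophore libraries and to 0.519 and 0.515 CPM in the shoot libraries. The 25004 entries are transcript models with numbers or Smoe names, and none could be paired with a gene name. The models are therefore described by level and by organ, only 4 are named, and the labelled tissues could not be checked against marker genes.

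The second rhizophore column went against the authors' own summary, in which it was weighted with root. A non-negative fit of the count columns to the authors' deposited Rhizophore average gave 99.5% of the weight to rhizophore replicate 1 and 0.312% to the library labelled rhizophore replicate 2. The same fit gave that library 49.8% of the weight in the authors' deposited Root average, beside 25.1% for each root library. There were 736 models listed at 0 in rhizophore replicate 1 and in the authors' deposited Rhizophore average but above 0 in the library labelled rhizophore replicate 2, with counts of up to 4147. The average also held signal that neither rhizophore column shows. Of 6284 models listed at 0 in rhizophore replicate 1, 850 were above 0 in the authors' deposited Rhizophore average, and 467 of these were at 0 in the library labelled rhizophore replicate 2 too. No model listed at 0 in both shoot libraries was above 0 in the authors' deposited Shoot average. By these weights the column may be a root library rather than a second rhizophore library, in which case every value over 2 rhizophore libraries would rest on 1. Levels in the column did not all follow root. Model 439279.v1 stood at 4601 CPM in it, against 6669 CPM in rhizophore replicate 1 and 1.85 and 2.79 CPM in the root libraries. For model 236852.v1 the column held 37.6 CPM, against 250.6 CPM in rhizophore replicate 1 and 28020 and 9786 CPM in root. Both models were picked with the help of this column, and its identity was not tested. The tables do not settle which organ the column holds. It is kept under its label, and the calls, sizes, shares and models on or off are given also without it.

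The rhizophore libraries were also far less alike than the shoot libraries. Of 11436 models at 10 CPM or more in at least 1 rhizophore library, 1759 (15.4%) differed more than 4-fold between the libraries on the log2(CPM + 1) scale, 882 in favour of replicate 1 and 877 in favour of replicate 2. Between the shoot libraries this held for 5 of 10225 models (0.0489%). The median absolute difference was 0.776 log2 units between rhizophore libraries and 0.136 between shoot libraries.

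The leafless axis differed from the shoot tip in 5169 of 23662 models tested (21.8%; edgeR's quasi-likelihood test on all 8 libraries, adjusted p under 0.05). Of these, 2372 (10.0% of those tested) were higher in rhizophore and 2797 (11.8%) were lower. With only the 4 rhizophore and shoot libraries fitted, 1736 of 17955 models passed, 624 higher and 1112 lower. The main fit shares its spread over all organs, although the rhizophore libraries differed from each other far more than the shoot libraries. In each of the 5169 both rhizophore libraries lay on the same side of both shoot libraries. That separation alone is common, since 29.2% of the models tested had both rhizophore libraries above both shoot libraries and 27.5% had both below. Without the library labelled rhizophore replicate 2, 7951 of 24709 models passed (32.2%), 4316 higher (17.5%) and 3635 lower (14.7%), a fit in which the lone rhizophore library is assumed to vary like the libraries of the other organs. Counting that library as root left 12 models, 4 higher and 8 lower. Which direction held more models depended on the scaling, with 2708 higher and 2678 lower under DESeq2's size factors.

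**Figure D1:**
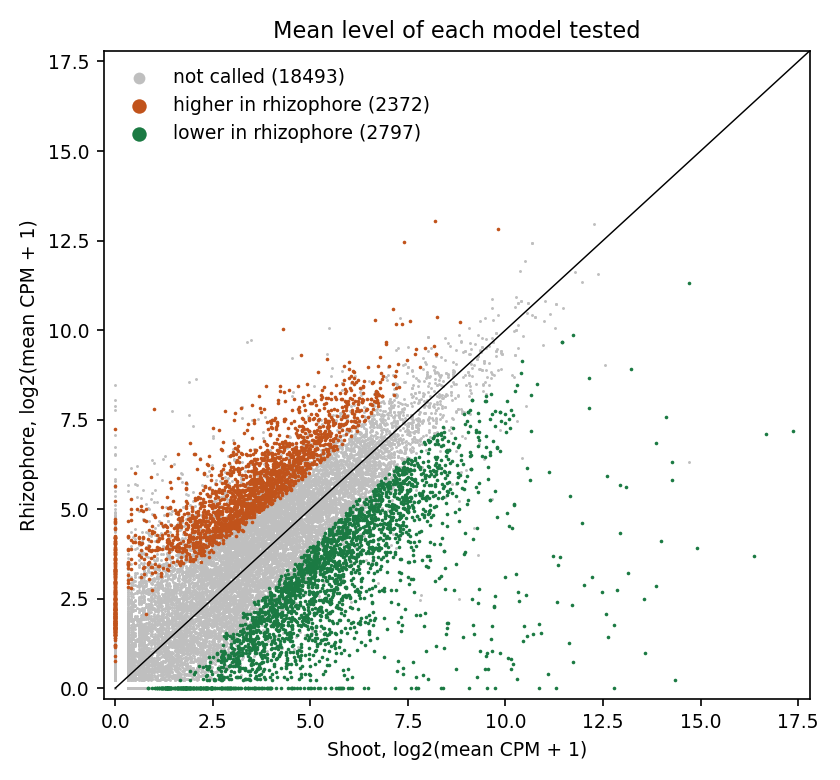
Each point is a model tested, with its mean CPM over 2 rhizophore libraries (vertical) and over 2 shoot libraries (horizontal), both as log2(CPM + 1), and the line marks equal levels. The 2797 models lower in rhizophore reach far to the right of the line at high shoot levels, whereas the 2372 higher ones lie mostly at middle levels.

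Models lower in rhizophore differed by more than those higher in it, and they outnumbered the higher ones among abundant models. The median absolute log2 fold change was 2.51 for models lower in rhizophore and 2.16 for those higher, with models at 0 in the lower organ set to the bound that 5 counts per library allow. On that footing 512 models (18.3%) were at least 16-fold lower in rhizophore and 183 (7.72%) at least 16-fold higher. At least 256-fold differences numbered 74 among the lower models and 1 among the higher ones. Without the library labelled rhizophore replicate 2 the medians were closer, at 1.99 for lower models and 1.84 for higher ones. In that fit 423 models (11.6%) were at least 16-fold lower and 175 (4.05%) at least 16-fold higher. Among the 89 models with a mean of 1000 CPM or more over the 4 libraries, 46 (51.7%) were lower in rhizophore and 3 (3.37%) higher. At means of 100 to 1000 CPM, 453 of 1627 models (27.8%) were lower and 257 (15.8%) higher. Among the 9168 models with means of 10 to 100 CPM the shares were near each other, at 17.0% lower and 18.0% higher. With rhizophore replicate 1 alone, 49 of 95 models averaging 1000 CPM or more over both organs were lower (51.6%) and 21 higher (22.1%), and at 10 to 100 CPM 24.3% were lower and 32.0% higher.

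Much of the RNA counted in the shoot tip came from models that were scarce in the rhizophore. The 2797 models lower in rhizophore took 7.66% and 6.85% of the counts in the rhizophore libraries, against 64.0% and 63.8% in the shoot libraries. The 2372 higher ones took 22.8% and 27.2% of rhizophore counts, against 2.67% and 2.68% of shoot counts. These sets were chosen by the same libraries, so the shares describe how much RNA is involved and support nothing further. The 95% Wilson intervals of the shares in this and the next paragraph reach at most 0.0583 percentage points to either side and cover counting error only. In the fit without the library labelled rhizophore replicate 2, the lower models took 11.97% of the counts in rhizophore replicate 1, against 72.1% in each shoot library. The higher models of that fit took 52.1% of rhizophore replicate 1, against 8.21% and 8.19% of the shoot libraries.

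The most abundant models of each organ gave the same contrast in concentration. The 100 models with the highest mean level in shoot took 13.0% and 6.76% of the counts in the rhizophore libraries, against 53.8% and 53.5% in the shoot libraries, and 64 of these 100 were called lower in rhizophore and 0 higher, where 11.8% of all models tested were lower and 10.0% higher. The 100 leading rhizophore models took 23.9% and 14.5% of the rhizophore counts, against 8.47% and 8.25% of the shoot counts. Of those 100, 16 were called higher in rhizophore and 4 lower. The lists were picked by levels in the libraries that enter the call, so these counts are a description only. The 2 lists of 100 shared 35 models. With the library labelled rhizophore replicate 2 left out, 72 of the 100 shoot models were lower and 5 higher, and of the 100 leading models of rhizophore replicate 1, 64 were higher and 5 lower, beside 14.7% lower and 17.5% higher over all models of that fit.

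A pair of models was named in each direction, by the highest mean level among called models with at least a 16-fold difference, at least 50 CPM in each library of the higher organ and less than 2-fold between that organ's libraries. The rule was met by 10 models higher in rhizophore and by 225 lower ones. Its last condition is harder to meet in rhizophore, whose libraries differed by a median of 0.776 log2 units, against 0.136 for shoot. The numbers passing are therefore not an even comparison of the organs. The leading rhizophore model, 442072.v1, stood at 10610 and 6422 CPM in the rhizophore libraries, against 274 and 305 CPM in the shoot libraries. Both rhizophore libraries were far above both shoot libraries, and the leaf libraries, at 311 and 310.6 CPM, were at the shoot level. Root was lower and uneven, at 22.4 and 202 CPM. The difference was 4.88 log2 units with a standard error (SE) of 0.97 (adjusted p = 0.00899 by edgeR). Without shoot replicate 1 or 2 the call ended (edgeR adjusted p of 0.0776 and 0.0712), with log2 fold changes of 4.80 and 4.96.

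The second, 439279.v1, was at 6669 and 4601 CPM in the rhizophore libraries, against 152 and 181 CPM in the shoot libraries. Its mean was 5635 ± 1460 CPM in rhizophore and 166.5 ± 20.2 CPM in shoot (SD, n = 2 each), a log2 difference of 5.08 with an SE of 0.49 (adjusted p = 0.000194 by edgeR). It stood at 1.85 and 2.79 CPM in the root libraries and at 162 and 172 CPM in the leaf libraries, so that leaf lay at the shoot level and root far under it. For 442072.v1 the authors' deposited table gave averages of 11190 for Rhizophore, 304 for Shoot and 3391 for Root. For 439279.v1 it gave 7025, 174.6 and 2406. Both Root averages thus lay above the Shoot averages, whereas both libraries labelled root lay below the shoot libraries. By the fitted weights, 49.8% of the Root average came from the library labelled rhizophore replicate 2. Without the library labelled rhizophore replicate 2 the log2 fold changes were 5.35 for 442072.v1 and 5.48 for 439279.v1, from the lone rhizophore library left.

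The leading shoot model, 236852.v1, was at 250.6 and 37.6 CPM in the rhizophore libraries, against 172100 and 168700 CPM in the shoot libraries. The groups lie far apart, and the rhizophore libraries differ from each other more than 4-fold. The log2 difference was -10.21 with an SE of 1.35 (adjusted p = 0.000882 by edgeR). The next, 139170.v1, was at 233 and 37.2 CPM in the rhizophore libraries, against 103800 and 105400 CPM in the shoot libraries, a log2 difference of -9.59 with an SE of 1.25 (adjusted p = 0.000826 by edgeR). In leaf, 236852.v1 stood at 125300 and 144200 CPM and 139170.v1 at 73400 and 88170 CPM, near the shoot levels. In root they were lower, at 28020 and 9786 CPM for 236852.v1 and 7260 and 2687 CPM for 139170.v1. Both had their lowest levels of the 4 organs in rhizophore. With only the 4 rhizophore and shoot libraries fitted, both calls ended narrowly (edgeR adjusted p = 0.0515 for 236852.v1 and 0.0502 for 139170.v1). Without the library labelled rhizophore replicate 2 the log2 fold changes were -9.25 for 236852.v1 and -8.65 for 139170.v1, from the lone rhizophore library left. Counting that library as root ended the calls of all 4 named models, with edgeR adjusted p of 0.338 for 442072.v1, 0.482 for 439279.v1, 0.274 for 236852.v1 and 0.235 for 139170.v1.

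**Figure D2:**
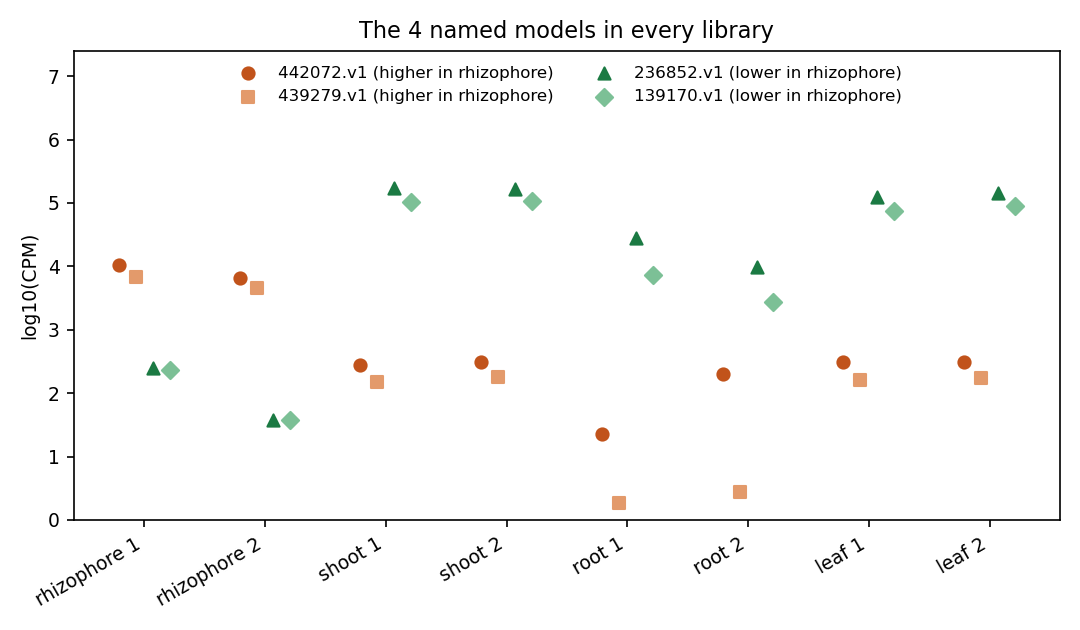
The vertical axis gives log10(CPM) of the 4 named models in each of the 8 libraries. The models 442072.v1 and 439279.v1 are high in both rhizophore libraries and alike in shoot and leaf, and 236852.v1 and 139170.v1 are high in shoot and leaf, lower in root and lowest in rhizophore.

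Leading shoot models were found at higher levels in rhizophore replicate 1 than in the library labelled rhizophore replicate 2. Of the 225 models lower in rhizophore that met the naming rule, 173 were higher in replicate 1, 43 of them at least 4-fold, and 32 were higher in replicate 2, none of them 4-fold. Their medians were 4.18 and 1.36 CPM in the rhizophore libraries, against 273 and 299 CPM in the shoot libraries. The authors' deposited Rhizophore average had a median of 4.36 over these models, and their Shoot average 312.7. Of all models called higher in rhizophore the opposite held, with 738 higher in replicate 1 and 1634 higher in the library labelled replicate 2.

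Most models were listed in both organs, and strict presence in 1 organ only was rare. Of 25004 models, 15702 were above 0 in all 4 libraries and 4256 in none. There were 908 above 0 in both rhizophore libraries and neither shoot library, and 459 above 0 in both shoot libraries and neither rhizophore library. At a level of 10 CPM, 6651 models passed in all 4 libraries, 1279 in both rhizophore libraries alone and 1318 in both shoot libraries alone. Passing in 1 library of an organ was frequent for rhizophore, with 522 models in replicate 1 alone and 1012 in the library labelled replicate 2 alone. It was rare for shoot, with 166 in replicate 1 alone and 116 in replicate 2 alone. In addition 1054 models passed in rhizophore replicate 1 and both shoot libraries but not in the library labelled rhizophore replicate 2, against 355 for the reverse.

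**Figure D3:**
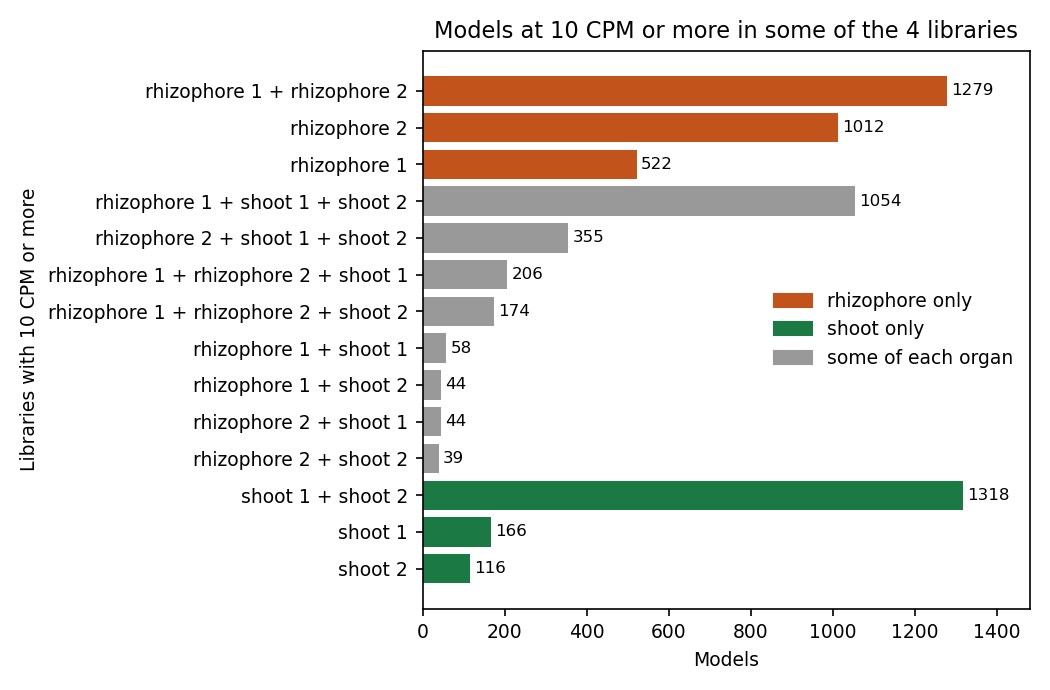
Bars give the number of models at 10 CPM or more in exactly the libraries named on the left, leaving out models that passed in all 4 libraries or in none. Models of both rhizophore libraries alone (1279) and of both shoot libraries alone (1318) are about as many, while single rhizophore libraries hold 522 and 1012.

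Models on in one organ and off in the other were then counted, where on means at least 10 CPM in both libraries of an organ and off means listed at 0 in both libraries of the other. This choice describes the data and carries no test of its own. There were 7 models on in rhizophore and off in shoot, and 63 on in shoot and off in rhizophore. At 1 CPM the numbers were 321 and 294, and at 100 CPM they were 0 and 13. Of 8310 models on in rhizophore, 7 were at 0 in both shoot libraries, 19 more stayed under 1 CPM there and 1253 had a highest shoot value of 1 to 10 CPM. Of 9378 models on in shoot, 63 were at 0 in both rhizophore libraries, 81 more stayed under 1 CPM and 1174 had a highest rhizophore value of 1 to 10 CPM. Without the library labelled rhizophore replicate 2, where rhizophore replicate 1 alone decides, 16 models were on in rhizophore and off in shoot and 76 on in shoot and off in rhizophore. With that library alone the numbers were 159 and 254.

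The 7 models on in rhizophore only reached low to middle levels. They ranged from 10.4 to 63.2 CPM in rhizophore replicate 1 and from 12.7 to 277 CPM in the library labelled replicate 2, with medians of 18.6 and 23.4 CPM, and were 0 in both shoot libraries. The most abundant stood at 24.6 and 277 CPM in rhizophore, so most of its signal was in the second library. The next stood at 63.2 and 35.4 CPM and was at least 95.4-fold higher in rhizophore than in shoot, against 5 counts per shoot library. All 7 passed the edgeR test (adjusted p of 0.000402 to 0.0186), as did 21.8% of all models tested. The 7 were chosen by the libraries that enter the test, so their passing supports nothing further. In the authors' deposited table their Rhizophore averages ran from 10.6 to 66.2, and their Shoot averages were 0. By the fitted weights these averages draw on the columns that chose the models, so they are no second source.

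The 63 models on in shoot only reached far higher levels. They ran from 10.2 to 7843 CPM in shoot replicate 1 and from 10.4 to 6290 CPM in replicate 2, with medians of 32.0 and 31.1 CPM, and were 0 in both rhizophore libraries. The most abundant was at least 19480-fold higher in shoot than in rhizophore, against 5 counts per rhizophore library. Of the 63, 62 passed the edgeR test, and the remaining one, at 22.5 and 18.4 CPM in shoot, did not (adjusted p = 0.0967). These models too were chosen by the libraries that enter the test, so their passing supports nothing further. One stood apart within shoot, at 1556 CPM in replicate 1 and 127 CPM in replicate 2, and was under 2 CPM in every root and leaf library. A further 2 of the 63 had counts within 0.1 log2 of another model in each of the 8 libraries, so reads may be split between copies. The authors' deposited table gave a Rhizophore average of 0 for 47 of the 63, and the highest of the other 16 was 0.340, against Shoot averages with a median of 33.0.

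The root and leaf libraries took no part in choosing these models and placed them differently. Of the 63 models on in shoot only, 28 were on in both root libraries and 52 in both leaf libraries, 27 of them in both organs and 10 in neither. Over all 25004 models, 35.3% were on in both root libraries and 35.1% in both leaf libraries. These shares are no matched background, since the 63 were chosen at 10 CPM or more in shoot. Of all models, 47.9% were below 10 CPM in all 4 rhizophore and shoot libraries. The shares among the 9378 models on in shoot were not computed. The same limit holds for the other comparisons with all models in this paragraph and the next. The medians of the 63 were 10.5 and 11.2 CPM in the root libraries and 25.4 and 29.2 CPM in the leaf libraries. In 6 of the 63 both root libraries exceeded both leaf libraries, and in 54 both leaf libraries exceeded both root libraries, against 50.6% and 24.9% of all models tested. Where rhizophore replicate 1 alone decided, 31 of the 76 models on in shoot were on in both root libraries and 59 in both leaf libraries. The lean to leaf was smaller in the larger class at 1 CPM. Of its 294 models on in shoot and off in rhizophore, 250 (85.0%) reached 1 CPM in both root libraries and 194 (66.0%) in both leaf libraries, against 82.0% and 59.7% of all models. Root exceeded leaf without overlap in 111 of the 294 and leaf exceeded root in 99, against 50.6% and 24.9% of all models tested. The medians were 4.10 CPM in root and 3.34 CPM in leaf. In leaf replicate 1, 5 counts correspond to 2.15 CPM, so depth limits the leaf figures at this level.

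Of the 7 models on in rhizophore only, 0 were on in both root libraries and 0 in both leaf libraries. They were not absent from root, where the medians were 2.64 and 3.59 CPM and no library listed one at 0. In leaf replicate 2 their median was 0.789 CPM, and 6 of the 7 were at 0 in leaf replicate 1, a library in which 5 counts correspond to 2.15 CPM. In 6 of the 7 both root libraries exceeded both leaf libraries, against 50.6% of all models tested. In the larger class defined at 1 CPM, 241 of 321 models on in rhizophore (75.1%) reached 1 CPM in both root libraries and 10 (3.12%) in both leaf libraries. The root share was below the 82.0% of all models, and the leaf share was far below the 59.7% of all, a figure that the depth of leaf replicate 1 limits. Where rhizophore replicate 1 alone decided, the 16 models on in rhizophore had median levels of 2.71 CPM in root and 0.460 CPM in leaf, and 0 were on in both libraries of either organ.

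**Figure D4:**
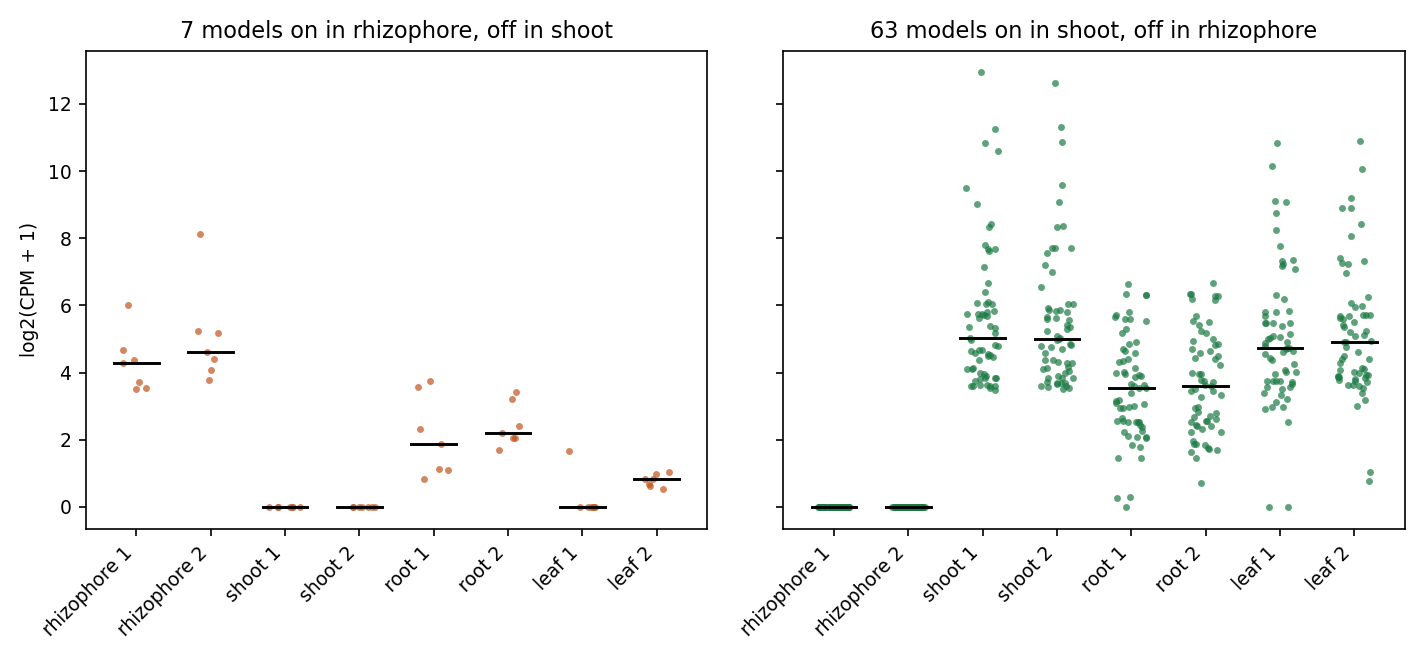
Points give log2(CPM + 1) of each model on in one organ and off in the other, in all 8 libraries, and black bars give medians. The 7 rhizophore models (left panel) are low in root and near 0 in leaf, and the 63 shoot models (right panel) are close to their shoot levels in leaf and lower in root.

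Root and leaf, which share no library with rhizophore and shoot, were also compared over all called models. The calls used a spread estimated from all 8 libraries, root and leaf included, so the called sets are not independent of root and leaf. How far this shaped the shares below was not tested. Both root libraries exceeded both leaf libraries in 1491 of the 2372 models higher in rhizophore than in shoot (62.9%), in 452 of the 2797 lower ones (16.2%) and in 50.6% of all models tested. Both leaf libraries exceeded both root libraries in 361 of the higher models (15.2%), in 1778 of the lower ones (63.6%) and in 24.9% of all. By edgeR's test at an adjusted p under 0.05, root exceeded leaf in 12.2% of the models higher in rhizophore, 1.54% of the lower ones and 3.10% of all. It was below leaf in 2.91% of the higher models, 27.0% of the lower ones and 6.66% of all. The median log2 fold change of root over leaf was 0.83 for models higher in rhizophore, -0.83 for lower ones and 0.66 for all models tested. The lower models thus stood apart from the whole table in these measures, whereas the median of the higher ones was close to that of all models. The root libraries held 25937179 and 27891111 counts and the leaf libraries 2826533 and 16058139, and the part of depth in these shares was not tested.

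Without the library labelled rhizophore replicate 2 the leaf side of this pattern was kept and the root side was not. Both leaf libraries exceeded both root libraries in 58.3% of the 3635 models lower in rhizophore replicate 1, against 23.9% of all 24709 tested. Both root libraries exceeded both leaf libraries in 51.4% of the 4316 higher models, against 51.5% of all.

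**Figure D5:**
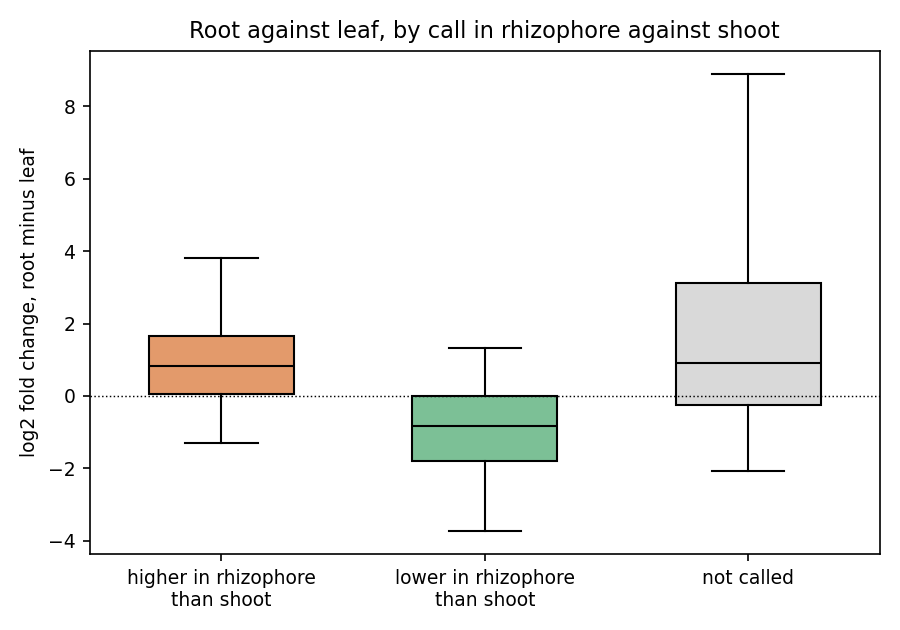
Boxes give the quartiles and median of the log2 fold change of root over leaf for models higher in rhizophore than in shoot, lower in it, and not called, with whiskers at the 5th and 95th percentiles. The medians are 0.83 for the higher, -0.83 for the lower and 0.92 for the models not called.

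The names of the models, which took no part in any choice, were unevenly spread over the calls. Of 2717 models tested whose name starts with Smoe, 326 (12.0%) were higher in rhizophore and 420 (15.5%) lower, against 2046 (9.77%) and 2377 (11.3%) of 20945 models with numeric names. The filter kept 2717 of 2719 Smoe models and 20945 of 22285 numeric ones. Call rates depend on level, and levels were not matched between the kinds of name. With rhizophore replicate 1 alone 25.0% of Smoe models were higher and 23.6% lower, against 16.5% and 13.6% of numeric ones. One run of numbers stood out and was picked after its values were seen, so it carries no test. The table holds 82 models numbered from 137000 to 137999, and of 77 tested, 51 (66.2%) were lower in rhizophore and 3 higher, and 8 of the 63 models on in shoot only belonged to it. In the other runs of 1000 numbers with at least 20 models tested, 219 runs in all with this one, the share lower in rhizophore was at most 32.3%. These 82 models took 0.309% and 0.0440% of the counts in the rhizophore libraries, against 16.2% and 16.9% in the shoot libraries. They took 2.77% and 2.32% in the root libraries and 17.2% and 16.1% in the leaf libraries. The run was thus rich in shoot and leaf, lower in root and lowest in rhizophore. Its median levels were 1.93 and 0 CPM in the rhizophore libraries, against 640 and 595.5 CPM in the shoot libraries. Listed at 0 were 18 and 41 of the 82 in the rhizophore libraries, against 10 and 11 in the shoot libraries. The highest levels in the rhizophore libraries were 971 and 69.6 CPM. When only rhizophore replicate 1 was used, 53 of the 82 were lower in rhizophore and 3 higher.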

How the data were processed

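The authors deposited raw counts per transcript model for each library. A second deposited table holds a signal that is, per the file headers, an average of normalized reads for each organ. How it was averaged is not stated. Bowtie2 and edgeR are named in the submitters' processing notes. Their settings, the genome build, the annotation and the way reads were counted were "not given in the sources used here". Reads were 50 bp and single-end, per the labels' protocols. Whether the 2 libraries of an organ come from different plants is not said, and the p-values cover only the spread between libraries, which may be technical.

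Counts were fitted with edgeR 4.0.16 under R 4.3.3 (filterByExpr, TMM scaling and the robust quasi-likelihood test, all 8 libraries with a term per organ, so that the organs share an estimate of the spread). The filter removed 1342 models. Benjamini-Hochberg adjustment covered all 23662 models tested. Levels are CPM from the deposited counts. Standard errors come from the fold change and its F statistic. Alternatives used DESeq2 1.42.0 and limma 3.58.1, and the weights of columns in the averages came from non-negative least squares in scipy 1.17.1. The fit was tested on simulated data with the same spread in every library. Its behaviour under the wider spread of the rhizophore libraries was not tested. The named models are the 2 per direction with the highest mean level in the higher organ among called models at least 16-fold apart, at 50 CPM or more in each library of that organ and within 2-fold between its libraries. No more were named because the reference table pairs no name with these models, and the planned gene lists could not be matched. Members, lists and rules were chosen with earlier results of these data known. No column of the tables was left unmapped (0).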

Additional observations from a re-analysis of the deposited data

How the results depend on the processing

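Counts of called models moved most when the library labelled rhizophore replicate 2 was counted as root, which left 12 (4 higher, 8 lower). Leaving out each of the 8 libraries in turn gave totals of 1842 to 10366, with 452 to 5784 higher and 1388 to 4582 lower in rhizophore; the lowest totals came without shoot replicate 1 (1842) or 2 (1920) and the highest without rhizophore replicate 1 (10366) or 2 (7951). Without either root or either rhizophore library log2 fold changes moved up by a median of 0.172 to 0.18. These medians cover models tested both ways and above 0 in all 4 rhizophore and shoot libraries. The fit on the 4 rhizophore and shoot libraries alone called 1736 (624 higher, 1112 lower), and an adjusted p under 0.01 gave 2368 (855 and 1513). DESeq2's test called 4149 higher. The total stayed within 1.5 times of 5169 with DESeq2's size factors, DESeq2's test, limma-voom, no filter, and a filter at 10 CPM in 2 libraries. Replicate numbers did not pair the samples (correlation of deviations between rhizophore and shoot -0.00116), and with the replicate block 4328 models were called (1882 higher, 2446 lower). Models on in rhizophore and off in shoot numbered 13 to 159, and those on in shoot and off in rhizophore 66 to 254, with 1 of the 4 libraries left out. They were 321 and 294 with on at 1 CPM, and 0 and 13 at 100 CPM, and 20 and 65 with the 4 libraries thinned to the smallest total. The cause of these changes was not tested. No named model changed direction in any of the 16 alternatives. Gene lists could not be run. Depth limits the models off in an organ, since 5 counts are the least listed.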
